A study of Mus musculus with 2 samples.

Results

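Heat shock proteins and their DnaJ cochaperones were examined in endothelial cells of the embryonic mouse kidney. A gene was a member if its symbol in the platform annotation began with Hspa, Hspb, Hspd, Hspe or Hsph and a number, with Hsp90, with Dnaja, Dnajb or Dnajc and a number, or with Cct2 to Cct8, or was one of Bag1 to Bag6, Hsf1 or Hsf2. Only probe sets annotated to exactly 1 gene were used. This gave 86 genes, measured by 206 probe sets, out of 18193 genes on the array. Hsf1, Hsp90ab1 and Dnajc19, whose symbols also match, had no probe set annotated to them alone and were not analysed here as members. The samples were 2 pools of GFP-positive cells, each pool from roughly 5 to 10 kidneys of CD-1 embryos at E15.5 (Theiler stage 23) that carried the transgene Tg(TIE2GFP)287Sato. Kidneys had been trypsinized, the cells sorted by fluorescence, and the RNA amplified in 2 rounds before hybridization to 1 array per pool. The promoter of Tie2, a receptor of endothelium that some blood cells also use, drove the reporter in both pools, and no other genotype, age or treatment was compared. The sample titles name Flk1 rather than Tie2, and no label says whether the pools came from separate litters.

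Chaperones hold unfolded proteins and help them reach or regain their shape. HSP70 proteins bind short hydrophobic stretches in a cycle driven by ATP. DnaJ proteins bring the substrate and switch on the ATPase, whereas HSP110 and many BAG proteins release the ADP and so the substrate. HSP90 acts later on kinases and receptors, which include clients central to endothelium such as endothelial nitric oxide synthase. Small heat shock proteins keep unfolding proteins from aggregating, and the chaperonins enclose a protein in a barrel, HSP60 in mitochondria and CCT in the cytosol, where actin and tubulin are its best known clients. Heat shock factors raise many of these genes when cells are stressed.

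Levels are deposited intensities (arbitrary units), and where a gene has a pair of values the first is replicate 1 and the second replicate 2. Each gene was read from 1 probe set, the one brightest on average over the arrays on the log2 scale. The background limit was the 95th percentile of 83 probe sets for olfactory, vomeronasal and taste receptors, 202.5 on replicate 1 and 204.1 on replicate 2, and a gene was above background only if it passed on both arrays. Brightness depends on each probe's sequence, so no gene is ranked against another by it. Differences are log2 of replicate 1 minus replicate 2 after the medians of the arrays were made equal. With 1 group there was no contrast and no test, and with 1 array per pool no difference has a replicate check.

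Of the 86 members, 70 (81.4%) were above background on both arrays, beside 61.0% of all 18193 genes. A further 1 passed on replicate 2 only and 15 passed on neither array. The labels give the renal artery and vein as the source of this endothelium, whereas the protocol dissociates whole kidneys. All 10 pan-endothelial markers were above background, among them Cdh5, the junctional cadherin, at 22435 and 20733. Macrophage markers were above it for 10 of 10, with a summed intensity of 94069 and 115500, and sums here are over all measured genes of a list. Renal stroma markers were above it for 11 of 12 and erythroid markers for 4 of 7 (58026 and 50522). Most of that erythroid sum was Hbb-y alone, at 55397 and 48789. Nephron and ureteric markers passed on both arrays for 3 of 10 (1927 and 2193), and Cited1, Lhx1, Pax8, Wnt4, Ret, Wnt9b and Epcam did not. In these bulk pools the share of each chaperone signal that came from cells other than endothelium was not tested.

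**Figure D1:**
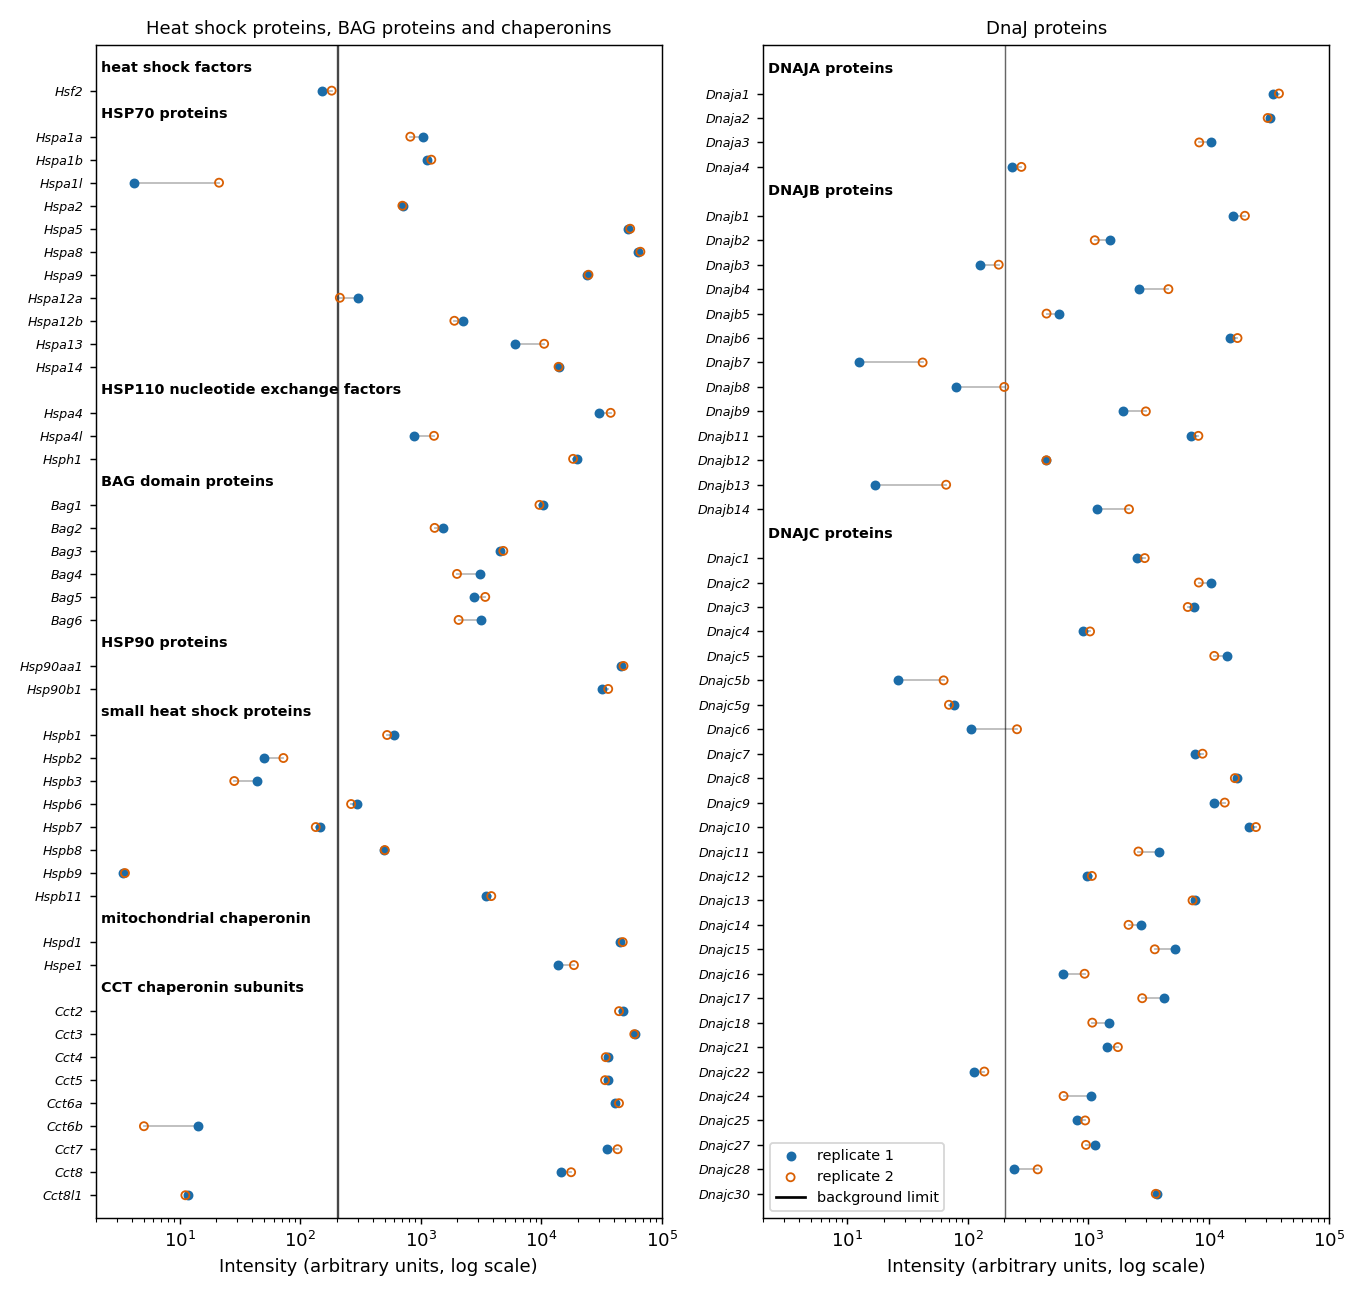
Intensity of each of the 86 genes in replicate 1 (filled) and replicate 2 (open), in arbitrary units on a log scale, ordered by class, with the background limits (202.5 and 204.1) as a vertical line. The 15 genes that passed on neither array include Hspa1l, Hspb9, Cct6b and Hsf2, and Dnajc6 passed on replicate 2 only.

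Of 11 HSP70 genes 10 were above background. Hspa8, the constitutive cytosolic form, gave 63953 and 66485, and Hspa5 (BiP), the HSP70 of the endoplasmic reticulum, gave 52020 and 54707. Hspa9 (mortalin), the mitochondrial form, gave 24104 and 24654. On the chosen probe sets each of these 3 chaperones was within 1.03-fold between the pools after centring. Other probe sets of Hspa8 above background had log2 differences from -0.40 (29133 and 39353) to 0.18. Those of Hspa9 had -0.21 and 0.20, and 2 of the 5 probe sets of Hspa9 were below the limit. The brightest probe set of any gene reached 76745 and 77291, so Hspa8 lay near the top of the range of both arrays.

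The stress-inducible pair Hspa1a and Hspa1b was above background on both arrays. Hspa1a gave 1040.0 and 818, a 1.30-fold difference, and Hspa1b gave 1118 and 1222, a 1.07-fold difference. The genes are nearly identical, so how far each probe set reads the other is uncertain. Hspa1b had 3 probe sets, and those not chosen gave 407 and 673, and 152 and 386, so both were higher in replicate 2 by more than the chosen probe set.

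Among HSP70 forms tied to particular tissues, Hspa12b, known for its expression in endothelium, gave 2230.1 and 1899. Its relative Hspa12a was just above the limit at 299 and 213, and 3 of its 4 probe sets were below it. Hspa2, best known from testis, was above background at 709 and 703, whereas Hspa1l, a testis form that resembles Hspa1a, was far below the limit at 4.15 and 21.1. Hspa14, which works at the ribosome, gave 14055 and 13912. Hspa13, a microsomal HSP70 that lacks a substrate domain, had the widest gap among HSP70 genes above background, 6069 and 10564, or 1.70-fold higher in replicate 2. Its other 3 probe sets, all above background, differed less, with log2 differences between -0.26 and -0.0049.

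The HSP110 genes (3 of 3) and the BAG genes (6 of 6) were all above background. Hsph1 gave 19954 and 18376 and Hspa4 gave 30358 and 37672, while Hspa4l, which is most abundant in testis, gave 877 and 1287. All 5 probe sets of Hspa4l were above background, with log2 differences from -0.52 to 0.14. The 4 of Hspa4 were also above it, with differences from -0.85 (4003 and 7366) to 0.40. Hsph1 had 0.15 on the chosen probe set and -0.47 on its other. Bag1, a binding partner of Bcl2 as well as of HSP70, gave 10316 and 9657. Bag3, which pairs with the small heat shock protein Hspb8 in autophagy of misfolded proteins, gave 4578 and 4840, a 1.03-fold difference. Bag4 (3113 and 1996) and Bag6 (3134 and 2059), a guide for tail-anchored membrane proteins, were 1.60-fold and 1.56-fold higher in replicate 1. Another probe set of Bag4 above background went the other way, at 987 and 1074. Bag2, an inhibitor of the ubiquitin ligase CHIP, gave 1533 and 1302, and Bag5 gave 2776 and 3427.

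Both measured HSP90 genes were above background and close between pools. Hsp90aa1, the inducible cytosolic form, gave 46072 and 48134, and Hsp90b1 (GRP94) of the endoplasmic reticulum gave 31826 and 35936. The probe sets of Hsp90aa1 went different ways. Of its 5, 3 were above background, 1 of these gave 7964 and 5279 with a log2 difference of 0.63, another gave 9201 and 12633 with -0.42, and 2 were below the limit.

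Of 8 small heat shock protein genes 4 were above background. Hspb1 (HSP25), an actin-protecting chaperone of many cells, gave 599 and 525. Hspb8, the partner of Bag3, gave 494 and 502, Hspb6 gave 293 and 264, and Hspb11, also a subunit of the intraflagellar transport machinery, gave 3465 and 3845. These 4 differed by at most 1.17-fold between the pools. Below the limit were Hspb2 (50.1 and 72.3), Hspb3 (44.1 and 28.3) and Hspb7 (146 and 134), which are known from heart and skeletal muscle, and the testis form Hspb9 (3.35 and 3.50). Hspb7 was below it with all 3 probe sets. Cryab, another small heat shock protein of muscle and lens, was also below the limit (128 and 80.9).

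Chaperonin genes were above background for every subunit of the core barrels that was measured. Hspd1 (HSP60) gave 45007 and 47439 and its lid Hspe1 (HSP10) gave 13649 and 18666, 1.33-fold higher in replicate 2. Of 9 CCT genes 7 were above background. Cct2 gave 47371 and 44218, Cct3 gave 60049 and 59185 and Cct5 gave 35841 and 33853. Cct6a gave 40803 and 44174 and Cct7 gave 34916 and 42983. On the chosen probe sets, log2 differences of the 7 ran from -0.27 to 0.13. Their other probe sets above background ran wider, from -0.69 for 1 of Cct3 (35378 and 58344) to 0.22 for 1 of Cct4. Tcp1, the remaining subunit of the ring, gave 45222 and 46766. The genes below the limit were Cct6b, a testis form of Cct6a, at 14.2 and 5.03, and the Cct8-like gene Cct8l1 at 11.7 and 11.1.

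Hspd1 and Hspe1 stand head to head on chromosome 1 and share their upstream region, which is shown here because both were above background and because this stretch holds heat shock element letters facing either gene. In the RefSeq annotation (GRCm38.p6) the start of Hspe1 (plus strand, 55088148) lies 216 bases from a start of Hspd1 (minus strand, 55087932), and another Hspd1 start, 55088243, lies on the far side of it. The element was searched as GAANNTTCNNGAA or TTCNNGAANNTTC, 3 units in alternating direction, on both strands, in the window of 250 bases before to 50 after each start. It was found for 4 of the 71 members with a promoter in the table, Hspd1, Hspe1, Hsph1 and Dnajb6, and for 0.662% of all 27025 genes. Dnajb6 is shown as the DnaJ gene among the 4. Capitals mark the matches, and in the first sequence 2 of them overlap.
Hspe1, chr1:55088034-55088101, plus strand: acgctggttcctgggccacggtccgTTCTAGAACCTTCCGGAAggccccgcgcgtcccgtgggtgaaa
Dnajb6, chr5:29735827-29735889, plus strand: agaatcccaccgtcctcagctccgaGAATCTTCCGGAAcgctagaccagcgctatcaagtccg

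The match ends 72 bases before the start of Hspe1, and that of Dnajb6 ends 34 bases before a start of that gene. The shorter pattern of 2 units, GAANNTTC or TTCNNGAA, which the longer one contains, occurred for 21 of 71 members (29.6%) and 17.0% of all genes. Members with it included Hspa1a, Hspa1b, Hspb1, Bag3, Dnaja1 and Dnajb4, but also Hspb3, Cct8l1 and Dnajc5g, which were below the limit. A match is a run of letters and no evidence of binding.

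DnaJ proteins are split by their domains into the A, B and C classes, of which A resembles the bacterial founder most. All 4 DNAJA genes were above background. Dnaja1 gave 33985 and 38269.5 and Dnaja2 gave 31992 and 30852, both partners of cytosolic Hspa8. Their probe sets were above background for 3 of 3 and 4 of 4. Log2 differences of these probe sets ran from -0.64 to -0.14 for Dnaja1 and from -0.55 to 0.12 for Dnaja2. Dnaja3, the mitochondrial form that serves Hspa9, gave 10418 and 8335. Dnaja4 was near the limit at 233 and 278, with 2 of its 3 probe sets below.

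Of 13 DNAJB genes 9 were above background. Dnajb1 (HSP40), the main stress-inducible DnaJ protein, gave 15788 and 19959.9, and Dnajb6, known for holding back aggregation, gave 14979 and 17326. The median log2 difference of the 9 was -0.18, beside 0.044 over all genes above background. Probe sets of these genes went different ways, and the second of Dnajb1, at 2567 and 2278, had a difference of 0.21 against -0.30 for the brighter. The widest gaps were those of Dnajb4 (2627 and 4626, 1.72-fold) and Dnajb14 (1179 and 2177, 1.80-fold). Dnajb14 was picked out after its value was seen, and its other probe set, also above background, gave 452 and 431 with a log2 difference of 0.10. The other probe set of Dnajb4 above background had a difference of -0.38. Dnajb9 and Dnajb11, lumenal partners of BiP, gave 1926 and 3005, and 7136 and 8202. Dnajb5 (567 and 450) and Dnajb12 (450 and 449) were above the limit with 1 probe set each. Dnajb2, abundant in neurons, gave 1509 and 1132. Below the limit were Dnajb7 (12.5 and 42.2) and 3 genes best known from testis, Dnajb3 (126 and 180), Dnajb8 (80.2 and 201) and Dnajb13 (16.9 and 66.1). Dnajb8 lay just under the limit on replicate 2.

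Of 27 DNAJC genes, a class of diverse proteins that share only the J domain, 23 were above background. In the endoplasmic reticulum, the inhibitor of PERK Dnajc3 gave 7528 and 6695, the membrane protein Dnajc1 gave 2535 and 2942 and the reductase Dnajc10 gave 21534 and 24649. On the chosen probe sets their differences were at most 1.15-fold. Log2 differences on other probe sets above background were -0.49 to 0.011 for Dnajc3, -0.46 and 0.0032 for Dnajc10, and -0.30 and 0.30 for Dnajc1. Dnajc2, which sits at the ribosome with Hspa14, gave 10402 and 8267. Dnajc5, the cysteine string protein of secretory vesicles, gave 14132 and 11113 with 5 of 5 probe sets above background, and its testis relatives Dnajc5b (26.1 and 63.0) and Dnajc5g (77.4 and 69.7) were below the limit. Dnajc13, which acts on endosomes, gave 7670.2 and 7337, and Dnajc7, an HSP70 and HSP90 adaptor, gave 7758 and 8882.

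The DNAJC genes furthest apart between pools were those of mixed roles. Dnajc24, of diphthamide synthesis, gave 1049 and 623, or 1.72-fold higher in replicate 1. Dnajc17, tied to splicing, gave 4243 and 2803, the mitochondrial Dnajc15 gave 5282 and 3563, and Dnajc11, also of mitochondria, gave 3854 and 2607. Each of these 3 was higher in replicate 1 by 1.51-fold to 1.55-fold. Dnajc28 was 1.55-fold higher in replicate 2 but close to the limit, at 240.1 and 380.1. Dnajc6 (auxilin), which strips clathrin from vesicles in neurons, was at 107 and 256, so it passed on replicate 2 only and was at least 1.23-fold higher there. Dnajc22 was below the limit (113 and 137). Dnajc18 gave 1492 and 1079, Dnajc21, of ribosome assembly, gave 1440.5 and 1761, and Dnajc27 gave 1143.5 and 957, each with some probe sets below the limit. The other 8 DNAJC genes above background lay between 615 and 17044.

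The promoters of Hspa5 and Dnajc3 are shown because both genes work in the endoplasmic reticulum, were above background and hold the letters of the ER stress element, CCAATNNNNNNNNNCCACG on either strand (capitals). It occurred for 3 of 71 members, the other being Hsp90b1, and for 0.137% of all genes in the table.
Hspa5, chr2:34772000-34772068, plus strand: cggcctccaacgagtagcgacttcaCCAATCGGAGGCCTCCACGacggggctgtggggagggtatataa
Dnajc3, chr14:118937802-118937870, plus strand: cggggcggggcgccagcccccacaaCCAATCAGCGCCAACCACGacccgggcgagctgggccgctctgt

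Of the heat shock factors in the symbol rule only Hsf2 was measured, and it was below the limit with both probe sets, at 151 and 182 with the brighter and 76.3 and 36.0 with the other.

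None of the 70 members above background differed by over 2-fold between the pools, although 2 did when a gene was read as the median of its probe sets. Over all 11102 genes above background, 2.26% were over 2-fold higher in replicate 1 and 2.57% in replicate 2. At 1.5-fold, 11 of 70 members (15.7%) differed, beside 20.4% of all genes, and they split into 6 higher in replicate 1 and 5 higher in replicate 2. The members' log2 differences ran from -0.85 (Dnajb14) to 0.79 (Dnajc24), with a median of 0.0066 beside 0.044 over all genes. Their SD was 0.36, against 0.51 over all genes. Brighter probe sets differed less between these arrays, and 33 of the 70 members (47.1%) were in the brightest of 4 equal bins of the genes above background. From the brightest bin to the dimmest, the SD was 0.24 for members and 0.37 for all genes, then 0.50 and 0.47, then 0.44 and 0.58, then 0.37 and 0.57.

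**Figure D2:**
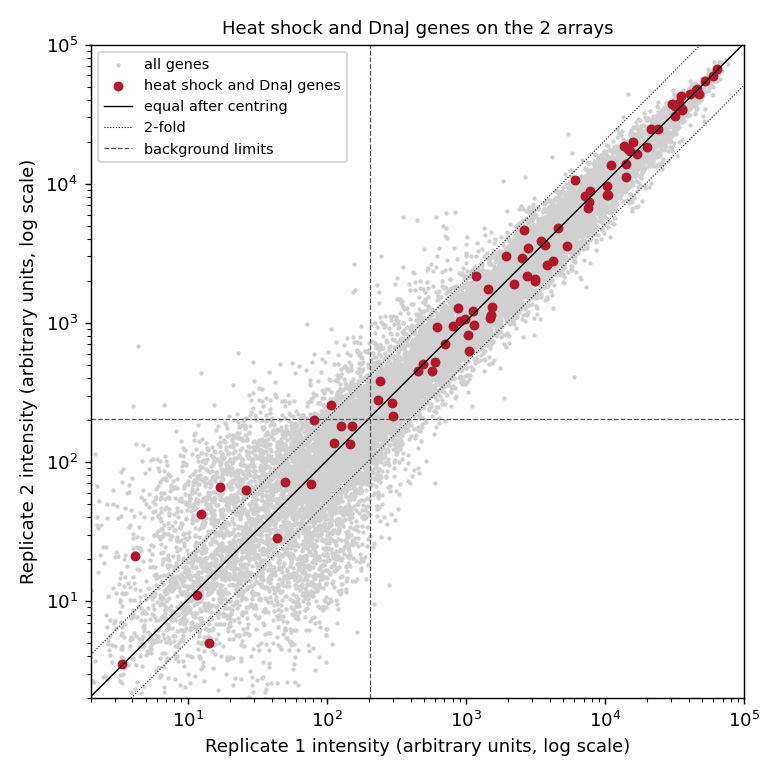
Each point is a gene, placed by its intensity on replicate 1 along x and on replicate 2 along y, with all genes in grey and the 86 heat shock and DnaJ genes in red, in arbitrary units on log scales, with the background limits dashed, equality after centring as a solid line and 2-fold as dotted lines. None of the 70 red points above both limits lies outside the dotted lines.

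Other groups of genes were set beside these differences. Renal stroma markers were much higher in replicate 2, with a median log2 difference of -1.88 over the 11 genes above background. Their summed intensity, over all 12 measured, was 28054 and 97122. Among them Pdgfra gave 720 and 4811 and Col3a1 gave 14533 and 43894. Pan-endothelial markers had a median of 0.14 and a summed intensity of 129729 and 121709. Single endothelial markers went both ways, from -0.80 for Pecam1 to 0.76 for Flt1. Over 2-fold apart were also the macrophage marker Ptprc (-1.13) and the erythroid markers Hbb-bh1 (1.31) and Hba-x (1.02). More stromal cells and more RNA per stromal cell cannot be told apart in bulk samples, and their part in the gaps of Dnajb4, Dnajb9 or Hspa13 was not tested. Immediate early genes, whose transcription starts within minutes of many stimuli, were above background for 13 of 13 (61.0% over all genes). Fos was at 38261 and 45027. The median log2 difference of the 13 was -0.15, and Fosb, at 1004 and 3020.0, was the 1 over 2-fold apart. Over all genes above background, 4.83% were over 2-fold apart. Among Hspa1a, Hspa1b, Hspb1, Hsph1, Hsp90aa1, Bag3 and Dnajb1, named as stress-inducible chaperones, the largest difference on the brightest probe sets was 1.30-fold. Other probe sets of these genes above background differed more, with log2 differences of -0.69 for Hspa1b, 0.63 for Hsp90aa1 and -0.47 for Hsph1. The choice left out other members with heat shock element letters. Of those above background, only Dnajb4 and Hspe1 were over 1.30-fold apart on the brightest probe sets, being 1.72-fold and 1.335-fold higher in replicate 2. Some other probe sets above background had log2 differences of -0.54 and -0.64 for Dnaja1, -0.46 for Dnajc10, and -0.70 and 0.40 for Dnajb6.

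**Figure D3:**
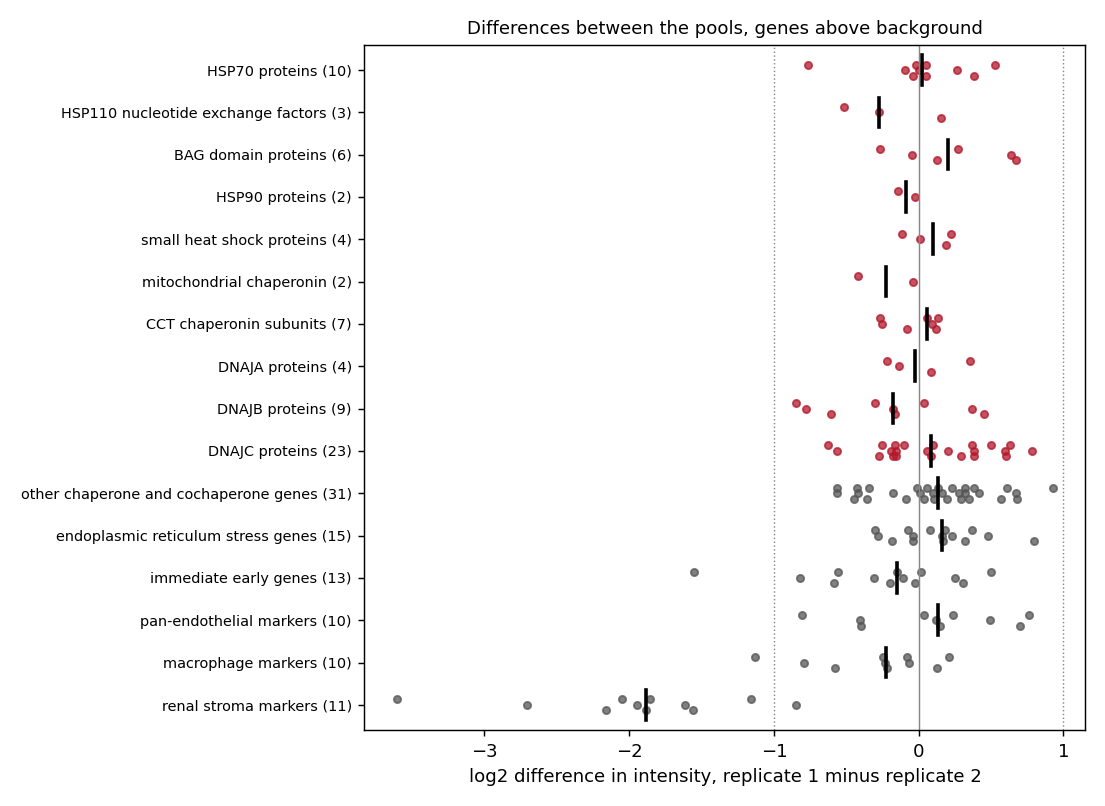
Dots are genes above background, placed by the log2 difference between the arrays (replicate 1 minus replicate 2) and sorted by chaperone class (red) or other gene list (grey), with medians as black bars, the number of genes in brackets and 2-fold as dotted lines. All red dots lie within 2-fold, and renal stroma markers have a median of -1.88.

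Chaperones and cochaperones outside the symbol rule were read in the same way. Of 34 measured, 31 were above background (61.0% over all genes). None of the 31 differed by over 2-fold (4.83% over all genes above background). They included Stip1 (HOP), which links HSP70 to HSP90, at 4268 and 5550.1, the HSP90 activator Ahsa1 at 21505 and 17675, the ubiquitin ligase Stub1 (CHIP) at 9137 and 8185, and Serpinh1 (HSP47), the collagen chaperone, at 26221 and 22864. Prefoldin subunits, which hand actin and tubulin to CCT, included the widest gap of the list, Pfdn5 at 6834 and 3685, or 1.90-fold higher in replicate 1. Below the limit were Cryab and the heat shock factor Hsf5 (72.1 and 137), and Hsf4 passed on replicate 2 only (135 and 228).

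Probe sets of 1 gene often disagreed. Of 54 members with several probe sets, 27 had some above background and some not, 23 had all above and 4 had none. Over all 9010 genes with several probe sets, 44.3% had such a mix. Of the 206 probe sets, 143 (69.4%) were above background, beside 55.0% of all probe sets with 1 gene. Cct4 had 5 of 7 above, with 35689.8 and 34307 on the chosen probe set and 5.90 and 115 on another. Cct8 gave 14508 and 17694 on the chosen one and 43.3 and 5.17 on the other. Among 39 members with at least 2 probe sets above background, the log2 differences all had 1 sign for 15 (38.5%), beside 47.9% of all such genes, and their median range was 0.53, beside 0.50 over all such genes. A single probe set above background was over 2-fold apart, that of Dnajc17 at 460 and 235, on the replicate 1 side.

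**Figure D4:**
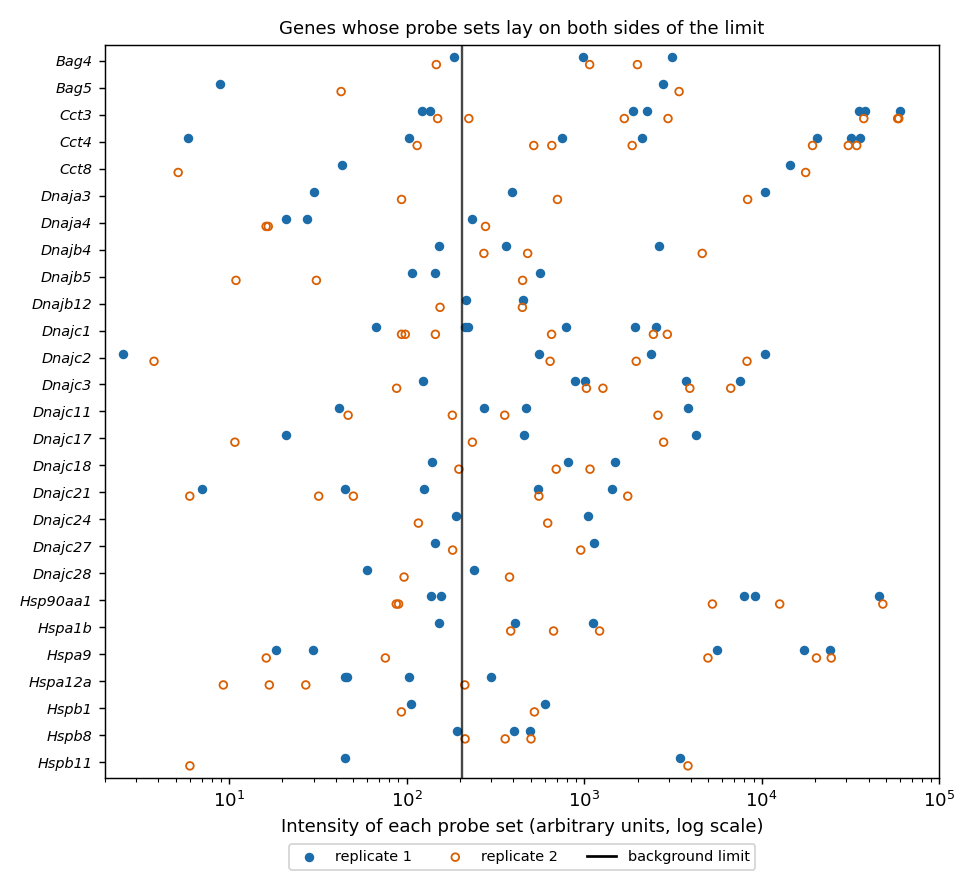
Intensity of every probe set of the 27 genes whose probe sets lay on both sides of the background limit, in arbitrary units on a log scale, in replicate 1 (filled) and replicate 2 (open), with the limits as a vertical line. Cct4 runs from 5.90 to 35689.8 in replicate 1.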

How the data were processed

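The authors deposited 1 intensity per probe set and array of an Affymetrix mouse expression array, on a linear scale, and GCOS is the tool, without a version, in the submitters' processing notes. The summary algorithm, detection calls and genome build are not given in the sources used here. The study's methods describe another array type. The mean trimmed by 2% at either end was 1500 on both arrays, so they had been scaled before deposit. Of 45101 probe sets, 34945 have 1 gene, 932 several, 9160 none, and 64 are controls. Gene identifiers of all 86 members were found in RefSeq (GRCm38.p6), which changed 0 symbols.

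Medians over probe sets above background were made equal, which removed -0.035 on the log2 scale. Scripts (Python 3.11.15, numpy 2.4.6, pandas 2.3.3) were tested on simulated data. The number of arrays limits the precision. Signal at the 3' end over that at the 5' end was 3.15 and 3.67 (Actb) or 19.5 and 22.3 (Gapdh).

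Members and lists were chosen with earlier results of these data known. The text names all members outside DNAJB and DNAJC; of those classes, members over 2-fold apart, at or below the limit, with probe sets that disagree, or from a set of well-known genes; and, of other lists, the first 3 genes and exceptions, given only where a result turns on them. Further genes were named for their known roles after their values were seen. Protein sequences were not analysed here. Of the members, 26 were read from probe sets whose suffix marks probes shared between transcripts or genes. Alternatives changed the limit, the probe set rule, the normalization, the offset and the arrays required.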

Additional observations from a re-analysis of the deposited data

Results flagged for a closer look

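Probe sets outside the main measurement carried signal. Of 3 probe sets annotated to both Dnajc19, a mitochondrial import cochaperone, and its pseudogene, 2 were above the background limits on both arrays. They gave 2191 and 2036 (replicate 1 and replicate 2), and 316 and 261. Which of the genes was read was not tested.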

How the results depend on the processing

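The count of members above background, 70 of 86, stayed within 1.5 times under all 6 alternatives. It was 75 with a limit of 100, 66 with 2 times the limit, 63 when each gene was the median over its probe sets, 55 of 78 with probe sets without a suffix, 71 when only replicate 2 had to pass and 70 when only replicate 1 had to. The share over all genes was 72.7%, 52.4%, 53.4%, 57.5%, 64.5% and 64.0%. At 2 times the limit Dnaja4, Dnajc28, Hspa12a and Hspb6 were lost, and at 100 Dnajb3, Dnajc22, Dnajc6, Hsf2 and Hspb7 were gained. With probe sets without a suffix, 4 CCT genes and 1 HSP90 gene were above background. Cct2 and Hsp90b1 have no probe set without a suffix and were not measured in that setting. Cct3 (122 and 224) and Cct8 (43.3 and 5.17) were measured in it but did not pass on both arrays. The count over 2-fold apart was 0 with no centring, quantile normalization, probe sets without a suffix, 2 times the limit and an offset of 50, but 2 when each gene was the median over its probe sets, Cct8 at 1.42 and Dnajc17 at 1.00. That median averages in the Cct8 probe set below the limit, and with the median over probe sets above background, an alternative chosen after seeing the data, the count was 0. The median log2 difference of members ran from -0.10 to 0.0066 over these settings, so its sign is not settled. Of 483 recomputed differences of single members, 23 moved by more than the SD over all genes, in 16 members and all with another choice of probe set. Among them, read as the median over its probe sets, Dnaja3 was at -0.81, Hspa13 at -0.13, Hspa1b at -0.69, Hsp90aa1 at 0.63 and Bag4 at -0.09. No paired analysis was possible because there is 1 group.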

Other observations

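Genes of the unfolded protein response of the endoplasmic reticulum were above background for 15 of 16 (61.0% over all genes). They included the transcription factors Atf4 (9169 and 7512), Xbp1 (23629.5 and 18763) and Ddit3 (938 and 688), the sensors Atf6 (1789 and 1628), Ern1 (386 and 487) and Eif2ak3 (4513 and 4756), and the lumenal chaperone Calr (30759.6 and 29796). Their median log2 difference was 0.16, and 0 of the 15 were over 2-fold apart, beside 4.83% of all genes above background. The widest gap in the list was that of Herpud1, of protein degradation at the reticulum, at 1775 and 1048. Trib3, a target of Ddit3, passed on replicate 2 only (166 and 316).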
